A study of Homo sapiens
Rattus norvegicus and Homo sapiens with 10 samples.

Results

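The genes described here are 10 core genes of the NRF2 antioxidant response and of the defence against ferroptosis, a form of cell death driven by iron-dependent lipid peroxidation. They were chosen by gene symbol from 62754 genes in the count table, and all 10 had a row. They are the regulators NFE2L2 and KEAP1, the cystine and glutathione genes SLC7A11, GCLC and GCLM, the lipid peroxidase GPX4, the thioredoxin-side genes TXNRD1 and SRXN1, and the quinone and haem enzymes NQO1 and HMOX1. RNA came from U251N, an established human glioblastoma line, implanted into the brains of adult female immune-compromised RNU/RNU rats. The 3 recurrent tumours had been ablated by laser interstitial thermal therapy (LITT, heating by a laser fibre, here guided by diffusion-weighted MRI) and had grown back, and the 3 primary tumours were never ablated. One library was a culture of the line without treatment, and 3 were control brains of the same host strain with no established tumour. The treatment label of all 3 controls is the same, procedural or failed-graft control, and does not tell these apart. All tumours derive from 1 cell line. The labels do not state that each library came from a separate animal, so the p-values measure the spread between these libraries, which may be technical in part.

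NRF2, the protein of NFE2L2, is a transcription factor that KEAP1 holds for degradation until oxidants or electrophiles modify KEAP1. Freed NRF2 induces genes that import cystine, build glutathione, recycle thioredoxin and detoxify quinones and haem. GPX4 uses glutathione to reduce lipid hydroperoxides and is the central barrier to ferroptosis, and SLC7A11 is the light chain of the cystine and glutamate exchanger that feeds glutathione synthesis. Glioblastoma cells are known for high cystine import.

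Short coding stretches are shown for the 2 selenoproteins of the set and for the sites on NRF2 that KEAP1 grips, because these are the features that join the genes functionally. In GPX4 and TXNRD1 the capitals mark the TGA codon, read as selenocysteine at codon 73 of 197 and codon 498 of 499. In NFE2L2 the capitals mark the DLG codons, which start at codon 29 of 605, and the ETGE codons, which start at codon 79. All 4 stretches are on the coding strand of GENCODE release 29 transcripts (GRCh38), each within 1 coding exon.
GPX4, chr19:1105391-1105417, plus strand, exon 3 of 7: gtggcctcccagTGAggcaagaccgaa
TXNRD1, chr12:104348401-104348421, plus strand, exon 15 of 15: caggctggctgcTGAggttaa
NFE2L2 DLG, chr2:177234212-177234244, minus strand, exon 2 of 5: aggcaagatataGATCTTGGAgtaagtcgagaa
NFE2L2 ETGE, chr2:177234059-177234094, minus strand, exon 2 of 5: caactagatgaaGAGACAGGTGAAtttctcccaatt

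Total estimated counts ran from 20321590 to 25299612 in recurrent tumours, from 25316552 to 39714714 in primary tumours and from 1358753 to 4158124 in controls, with 65058642 in the culture. The human share of reads was 29.44% to 42.67% in recurrent tumours, 42.52% to 64.4% in primary tumours and 0.33% to 4.9% in controls. RNA integrity was lowest for primary replicate 2 among the tumours, at 7.8, and its short transcripts stood high. Over 13081 protein-coding genes, Spearman's rho between transcript length and how far a gene lay from its tumour mean was -0.50 there and 0.08 to 0.27 in the other tumours, as a description across genes. Levels are given as CPM, the count divided by the library size and put on 1 scale for all libraries by the TMM method of edgeR on the 6 tumours. The glioblastoma markers VIM, NES, CD44, GFAP, FABP7, SOX9, EGFR and TNC were all detected in every tumour, with summed levels of 9077 to 10025 CPM in recurrent and 9717 to 10742 CPM in primary tumours. Between recurrent and primary tumours, 4 of these 8 markers had a log2 fold change above 0 and 4 below 0 (median -0.04). Of the 8, 3 were lower in recurrent tumours without overlap and 0 higher, though none passed the adjusted threshold. Over all genes tested, 7.42% were lower without overlap and 7.94% higher. The log2 fold change was -0.81 for GFAP (adjusted p = 0.267, edgeR), -1.08 for FABP7 (adjusted p = 0.430) and -0.33 for VIM (adjusted p = 0.583). Of 10 microglia and macrophage markers, 8 had a count of 0 in all 6 tumours, among them PTPRC, AIF1 and C1QA. The counts are of human genes and the host is a rat, so these zeros do not measure how many host cells were present. The 6 neuronal markers summed to 21.2 to 22.5 CPM in recurrent tumours, 15.4 to 19.5 CPM in primary tumours and 54.5 CPM in the culture, and the 5 oligodendrocyte markers to 8.61 to 21.2 CPM in recurrent tumours, 16.8 to 18.1 CPM in primary tumours and 1.61 CPM in the culture. The culture has no host, so these sums are not host signal alone, and their part in the results was not tested.

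Per kilobase of the main transcript, GPX4 had the highest level of the 10 genes, averaging 192 CPM per kb over the 6 tumours, followed by TXNRD1 at 67.9 and NQO1 at 55.3 CPM per kb. The tumours' ranges of TXNRD1 (55.8 to 90.5 CPM per kb) and NQO1 (49.5 to 65.2) overlapped. NFE2L2 averaged 36.0, GCLM 22.5, KEAP1 17.1 and SRXN1 15.2 CPM per kb. The ranges of GCLM and KEAP1 overlapped, as did those of KEAP1 and SRXN1. SLC7A11 and HMOX1 averaged 7.27 CPM per kb each, and GCLC, the catalytic subunit of the enzyme that starts glutathione synthesis, was lowest at 4.07 CPM per kb, below every tumour's value of SLC7A11 and HMOX1. The order depends on the annotated transcript used, which is longest for SLC7A11 at 9645 bases and shortest for GPX4 at 919 bases.

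**Figure D1:**
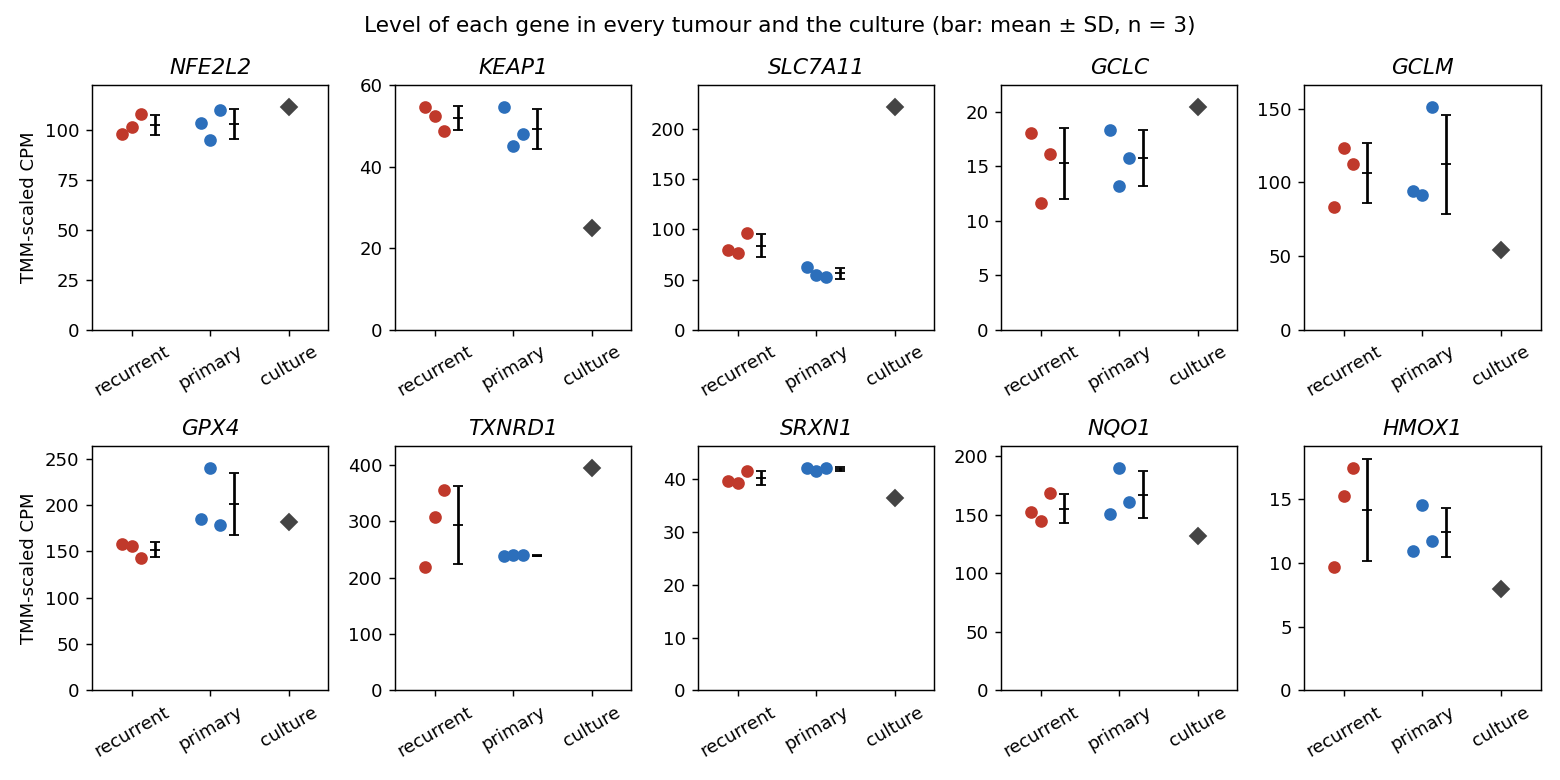
Each panel plots the TMM-scaled CPM (linear axis from 0) of 1 gene in the 3 recurrent tumours (red), the 3 primary tumours (blue) and the culture (grey diamond), with the mean and SD of each tumour group beside its points. SLC7A11 separates the recurrent tumours (76.1 to 96.9 CPM) from the primary tumours (52.3 to 62.5 CPM), and the culture lies above both at 222 CPM.

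The first comparison asked whether tumours that regrew after thermal ablation differed in this defence from tumours never heated. The groups overlapped for 8 of the 10 genes. SLC7A11 was higher in all 3 recurrent tumours and GPX4 lower in all 3, but neither passed the test over all genes. By edgeR's quasi-likelihood test, 0 of the 10 genes were called at an adjusted p under 0.05, as against 1 of 15928 genes tested, or 0.00628%. The called gene was the readthrough PEDS1-UBE2V1, named after its values were seen. At an unadjusted p under 0.05, edgeR, DESeq2 and limma-voom each had 2 of the 10 genes, while edgeR had 8.38% of all genes, and DESeq2 and limma-voom also called 0 of the 10. The groups did not overlap for 2 of the 10 genes, beside 15.4% of all genes tested, with 1 gene higher (7.94% of all genes) and 1 lower (7.42%). The median log2 fold change was -0.03 over the 10 genes, of which 4 were above 0, and -0.01 over all genes.

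Neither regulator differed beyond the spread between tumours. NFE2L2 stood at 97.9, 101.7 and 108 CPM in recurrent tumours, against 103.6, 95.3 and 110.0 CPM in primary tumours. KEAP1, the adaptor that delivers NRF2 to its ubiquitin ligase, stood at 54.6, 52.4 and 48.8 CPM in recurrent tumours, against 54.6, 45.0 and 48.0 CPM in primary tumours. The groups overlapped for both, and the 6 tumours spanned 1.15-fold for NFE2L2 and 1.21-fold for KEAP1. The log2 fold change of NFE2L2 was -0.01 (edgeR 95% interval -0.29 to 0.27) and that of KEAP1 was 0.08 (-0.22 to 0.37).

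SLC7A11 (ENSG00000151012.13, chromosome 4, 138164097 to 138242349, minus strand) stood at 79.1, 76.1 and 96.9 CPM in recurrent tumours, against 62.5, 54.1 and 52.3 CPM in primary tumours. The lowest recurrent tumour lay above the highest primary tumour. The means were 84.0 ± 11.2 CPM in recurrent and 56.3 ± 5.43 CPM in primary tumours (SD, n = 3 each), a log2 fold change of 0.58 (SE 0.14, unadjusted p = 0.0025, adjusted p = 0.408, edgeR), which ranked 94 by p. The difference ran from 0.45 to 0.66 with each tumour left out in turn (adjusted p from 0.245 to 0.887). It passed in 1 alternative, with no filter on low counts (0.57, adjusted p = 0.034), and DESeq2 gave an adjusted p of 0.062. The level of SLC7A11 was lowest in primary replicate 3, which had the highest graft percentage, and adjusting for that percentage gave a log2 fold change of 0.43 (adjusted p = 0.668). With the trend on transcript length removed it was 0.38 (adjusted p = 0.531).

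The 2 subunits of glutamate-cysteine ligase, the rate-limiting enzyme of glutathione synthesis, overlapped between the groups. GCLC stood at 18.0, 11.7 and 16.2 CPM in recurrent tumours, against 18.3, 13.1 and 15.8 CPM in primary tumours. GCLM, the modifier subunit, stood at 83.5, 123 and 112.7 CPM in recurrent tumours, against 94.2, 91.4 and 151 CPM in primary tumours. Primary replicate 3 was highest and recurrent replicate 1 lowest for GCLM, and these are also the tumours with the highest and the lowest graft percentage. The log2 fold change was -0.04 (SE 0.21) for GCLC and -0.08 (SE 0.22) for GCLM. Adjusted for graft percentage, the GCLM value turned to 0.48 (adjusted p = 0.668), and it turned to 0.20 (adjusted p = 0.789) without primary replicate 3.

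GPX4 (ENSG00000167468.20, chromosome 19, 1103926 to 1106791, plus strand) stood at 157.5, 155 and 143 CPM in recurrent tumours, against 185, 240.0 and 178 CPM in primary tumours. The groups did not overlap, and primary replicate 2 lay above the rest. The means were 152 ± 7.96 CPM in recurrent and 201 ± 33.8 CPM in primary tumours (SD, n = 3 each), a log2 fold change of -0.41 (SE 0.16, unadjusted p = 0.0266, adjusted p = 0.572, edgeR). Without primary replicate 2 it was -0.26 (adjusted p = 0.740), and with the length trend removed -0.22 (adjusted p = 0.560). GPX4 has the shortest transcript of the 10 genes, SLC7A11 the longest, and primary replicate 2 had the steepest length trend of the 6 tumours. Over 13081 protein-coding genes, Spearman's rho between the log2 fold change (recurrent minus primary) and transcript length was 0.36. Without primary replicate 2 it was 0.14. The part of transcript length in the difference of either gene was not tested.

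TXNRD1, the selenoprotein that reduces thioredoxin with NADPH, stood at 219, 308 and 356 CPM in recurrent tumours, against 238, 239.8 and 240.5 CPM in primary tumours. The primary tumours were nearly equal, while recurrent replicate 1 lay below all of them and recurrent replicates 2 and 3 above. The log2 fold change was 0.30 (SE 0.19, adjusted p = 0.667), and 0.13 without recurrent replicate 3 and 0.47 without recurrent replicate 1. SRXN1, which reactivates over-oxidised peroxiredoxins, stood at 39.7, 39.2 and 41.6 CPM in recurrent tumours, against 42.1, 41.5 and 42.1 CPM in primary tumours. It had the narrowest span of the 10 genes, 1.07-fold from the lowest to the highest tumour, and a log2 fold change of -0.06 (SE 0.12).

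NQO1, the quinone reductase used as a standard readout of NRF2 activity, stood at 152, 144 and 168.3 CPM in recurrent tumours, against 150.6, 189.8 and 161 CPM in primary tumours. HMOX1, which cleaves haem and frees iron, stood at 9.68, 15.2 and 17.4 CPM in recurrent tumours, against 10.9, 14.5 and 11.7 CPM in primary tumours. Both groups overlapped for each gene. The log2 fold change was -0.11 (SE 0.15) for NQO1 and 0.19 (SE 0.24) for HMOX1. With each tumour left out HMOX1 ran from 0.001, without recurrent replicate 3, to 0.40, without recurrent replicate 1, and it turned to -0.35 when adjusted for the prefix of the library name, which recurrent replicates 2 and 3 share. HMOX1 is high in macrophages that clear haem. The summed level of the 10 microglia and macrophage markers ran from 24.2 to 26.8 CPM in recurrent tumours, from 22.0 to 27.8 CPM in primary tumours and stood at 21.6 CPM in the culture, all of it from CD68 and CSF1R in the tumours. These are counts of human genes, so the sum does not measure rat macrophages in the tumours. In bulk RNA, fewer cells that express a gene and less RNA per cell cannot be told apart.

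**Figure D2:**
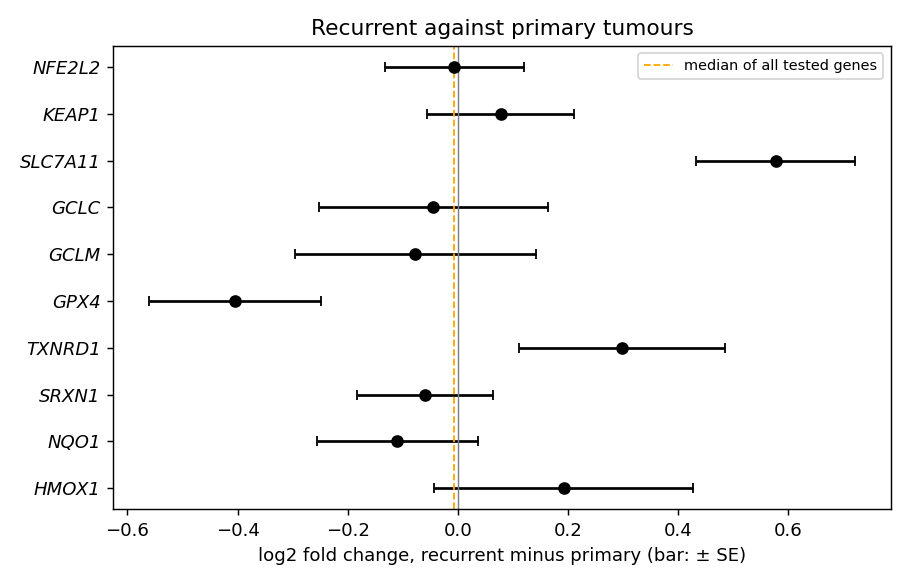
The log2 fold change of each gene (recurrent minus primary, edgeR) is plotted as a point with a bar of ± 1 SE, and the dashed line marks the median of all tested genes. SLC7A11 at 0.58 and GPX4 at -0.41 lie farthest from 0, and none of the 10 passed the adjusted threshold.

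A wider set of 109 genes in 10 lists by role, which includes the 10 genes, was read the same way. Of 101 that could be tested, 0 passed in edgeR, DESeq2 or limma-voom, with 10, 12 and 8 at an unadjusted p under 0.05. Over all 15928 genes these 3 tools had 8.38%, 9.64% and 8.86% at that threshold, against 9.90% of the listed genes in edgeR. The groups did not overlap for 11.9% of them, beside 15.4% of all genes. Of the 101, 45 had a log2 fold change above 0 and 56 below 0. Among the 16 glutathione peroxidases and transferases, 14 were below 0 (median -0.22), with GPX3, the secreted peroxidase, at -0.72 (SE 0.32), GSTK1 at -0.38 (SE 0.19) and GPX1, the main cytosolic peroxidase, at -0.41 (SE 0.24). Their summed level was 711, 671 and 704 CPM in recurrent tumours, against 711, 1061 and 735 CPM in primary tumours, so that primary replicate 2 stood apart. Without it, an alternative chosen after seeing the data, 8 were below 0 and 8 above (median 0.006), and GPX1 was at -0.025. In all 6 tumours the 2 above 0 were GSTM2 at 0.32 (SE 0.52) and GSTM4 at 0.26 (SE 0.20), the last named after its values were seen.

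Iron storage gave the smallest p of the listed genes outside the 10. FTL, the ferritin light chain, averaged 282 ± 8.46 CPM in recurrent and 431 ± 94.5 CPM in primary tumours (SD, n = 3 each; log2 fold change -0.61, SE 0.18, adjusted p = 0.516). FTH1, the heavy chain that oxidises iron, had -0.35 (SE 0.17), and SLC40A1, the iron exporter ferroportin, had -0.41 (SE 0.18). For these 3 genes the groups did not overlap, beside 7.42% of all genes tested that were lower and 7.94% higher without overlap. In the same list IREB2, named after its values were seen, was higher without overlap at 0.13 (SE 0.13). Without primary replicate 2 the values of FTL and FTH1 were -0.42 and -0.21. The haem and iron list had 9 of 14 genes below 0 (median -0.07), and 6 of 14 without that library (median 0.03).

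Of the NADPH-supply genes, 3 of 5 tested were above 0 (median 0.08). TALDO1, an enzyme of the pentose phosphate pathway, had -0.30 (SE 0.19) and IDH1 -0.20 (SE 0.15). Of the ferroptosis suppressors that act outside glutathione, 5 of 7 were above 0 (median 0.23), among them AIFM2 (FSP1, which reduces ubiquinone) at 0.26 (SE 0.13), VKORC1L1 at 0.23 (SE 0.18) and GCH1, the first enzyme of tetrahydrobiopterin synthesis, at 0.48 (SE 0.44). The AIFM2 groups did not overlap, at 46.3 ± 3.00 CPM in recurrent and 38.7 ± 0.536 CPM in primary tumours (SD, n = 3 each, adjusted p = 0.617, edgeR). It was the only 1 of these 7 genes without overlap, beside 7.94% of all genes tested that were higher without overlap.

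Among ferroptosis drivers, SAT1, which acetylates polyamines, had -0.47 (SE 0.18), ELOVL5, a fatty acid elongase, had 0.38 (SE 0.17) and FADS1, a fatty acid desaturase, had 0.23 (SE 0.17), and 5 of 7 tested were above 0 (median 0.15). Of the detoxification genes, 8 of 13 were below 0 (median -0.07), and 6 of 13 without primary replicate 2 (median 0.02). CBR1, a carbonyl reductase, had -0.38 (SE 0.15), AKR1C3 -0.98 (SE 0.40) and ABCC1, which exports glutathione conjugates, 0.50 (SE 0.26). AKR1C3, AKR1C1 and AKR1C2 are close paralogs, so their counts may depend on how shared reads were divided.

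The regulators had 7 of 12 genes above 0 (median 0.06). GSK3B and BTRC, which mark NRF2 for degradation apart from KEAP1, had 0.25 (SE 0.15) and 0.24 (SE 0.14), and RBX1, a subunit of KEAP1's ligase, -0.44 (SE 0.28). The cystine and glutathione list had 6 of 9 above 0 (median 0.09), with CHAC1, which degrades glutathione, at 0.38 (SE 0.29), GSR, which regenerates glutathione, at 0.18 (SE 0.15) and CTH, which makes cysteine from cystathionine, at 0.09 (SE 0.26). The thioredoxin list had 8 of 11 below 0 (median -0.06), with PRDX4, the peroxiredoxin of the endoplasmic reticulum, at -0.47 (SE 0.22), PRDX3 at -0.22 (SE 0.17) and PRDX2 at -0.12 (SE 0.14). Without primary replicate 2, 5 of these 11 were below 0 (median 0.04) and PRDX4 was at -0.16. The factors that build selenoproteins had 4 of 7 above 0 (median 0.06), with LRP8, a receptor for selenoprotein P, at 0.27 (SE 0.15), SEPHS2 at 0.13 (SE 0.15) and SECISBP2 at -0.09 (SE 0.15).

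The second comparison set the 6 tumours against the culture, which asks how the line's defence genes differ between brain and dish. With 1 culture library there is no test, and each tumour's ratio to that library is given. SLC7A11 was the only member of the 10 past 2-fold in all 6 tumours, and it was lower, beside 4.04% of 19306 genes lower, 2.57% higher and 6.61% in either direction by the same rule. The tumours stood between 52.3 and 96.9 CPM, against 222 CPM in the culture, a median log2 ratio of -1.69 with the recurrent tumours at -1.49, -1.55 and -1.20 and the primary tumours at -1.83, -2.04 and -2.09. Every tumour was below 0.5 of the culture level. Every recurrent tumour was nearer to it than any primary tumour, which restates the first comparison, as all 6 lay below the culture. At a 3-fold threshold 0 of the 10 genes remained, and at 1.5-fold SLC7A11 was joined by KEAP1 and GCLM, both higher in tumours, beside 8.62% of all genes lower and 5.59% higher at 1.5-fold.

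KEAP1 ranged from 45.0 to 54.6 CPM over the tumours, against 24.98 CPM in the culture, a median log2 ratio of 1.02 with 3 of 6 tumours past 2-fold. GCLM ranged from 83.5 to 151 CPM, against 54.3 CPM in the culture (median 0.92), and HMOX1 from 9.68 to 17.4 CPM, against 7.97 CPM (median 0.71). All 6 tumours lay above the culture for these 3 genes. TXNRD1 ranged from 219 to 356 CPM over the tumours, against 395 CPM in the culture (median -0.72), and GCLC from 11.7 to 18.3 CPM, against 20.4 CPM (median -0.35). All 6 tumours lay below the culture for both.

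The other members stayed near the culture. NFE2L2 ranged from 95.3 to 110.0 CPM over the tumours, against 111 CPM in the culture (median log2 ratio -0.12). SRXN1 ranged from 39.2 to 42.1 CPM, against 36.4 CPM (median 0.19), and NQO1 from 144 to 189.8 CPM, against 132 CPM (median 0.24). For GPX4 the tumours, at 143 to 240.0 CPM, lay on both sides of the 182 CPM of the culture (median -0.12). The median log2 ratio over all 19306 genes was -0.07.

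**Figure D3:**
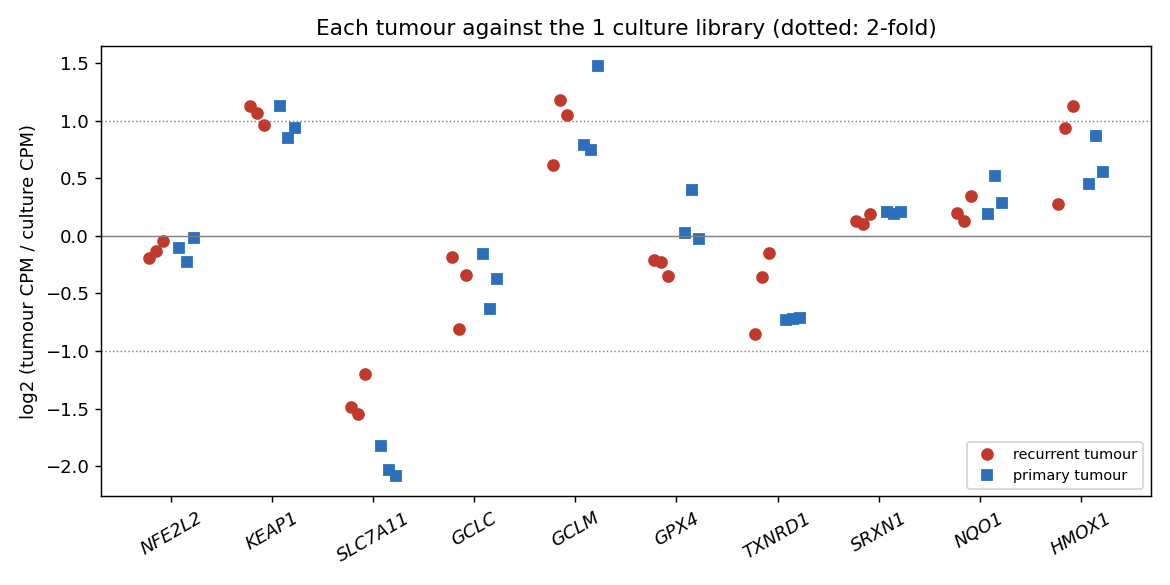
The log2 ratio of each tumour's CPM to the culture's CPM is plotted for the 10 genes, with recurrent tumours as red circles, primary tumours as blue squares and dotted lines at 2-fold. SLC7A11 is below the lower line in all 6 tumours (-2.09 to -1.20), and KEAP1 sits around the upper line (0.85 to 1.13).

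In the wider lists, 8 of 106 genes (7.55%) were past 2-fold lower than the culture in all 6 tumours and 0 were past 2-fold higher. The 9 cystine and glutathione genes held 3 of them, SLC7A11, CHAC1 and CTH, with a list median of -0.81. CHAC1 averaged 5.54 ± 1.27 CPM over the tumours, against 29.1 CPM in the culture, and CTH 6.80 ± 1.17 CPM, against 33.2 CPM (SD, n = 6 tumours). All 3 are known targets of ATF4, the transcription factor of the amino acid response, whose part in these levels was not tested. CBS, the enzyme before CTH in the same route, had a median log2 ratio of -1.54 and did not pass in every tumour.

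SAT1 averaged 280 ± 69.0 CPM over the tumours (SD, n = 6), against 1367 CPM in the culture, a median log2 ratio of -2.40. AKR1C1 and AKR1B10, aldo-keto reductases strongly induced by NRF2 in human cells, and the exporter ABCC2 were also lower by this rule, but all 3 had under 1 CPM in every tumour, against 3.49, 2.50 and 1.86 CPM in the culture. GSTM2 was the last, at 1.74 ± 0.678 CPM over the tumours (SD, n = 6), against 6.39 CPM in the culture. AKR1C2, ME1 and SELENOP had median log2 ratios of -2.68, -2.22 and -3.30 at under 2 CPM in every tumour and in the culture and did not pass in every tumour.

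Among genes higher in tumours than in the culture, none of which passed in all 6 tumours, PTGS2, the inducible cyclooxygenase, had the highest median log2 ratio of the lists, 2.05, with 4.09 ± 4.91 CPM in recurrent and 6.90 ± 2.52 CPM in primary tumours (SD, n = 3 each), against 1.31 CPM in the culture. GPX7 had 1.34, the iron reductase STEAP3 1.16, TALDO1 0.99, SLC40A1 0.88, MAFF, a small partner of NRF2, 0.68, TXN, thioredoxin itself, 0.64, EEFSEC 0.63, DHODH 0.49, AIFM2 0.39, TXN2 0.34 and PRDX1 0.28. On the lower side were GSTM3 at -1.10, MAFK at -0.84, TKT at -0.79, ELOVL5 at -0.60, SLC11A2 at -0.59, MBOAT2 at -0.58, SEPSECS at -0.58 and NFE2L1 at -0.55.

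**Figure D4:**
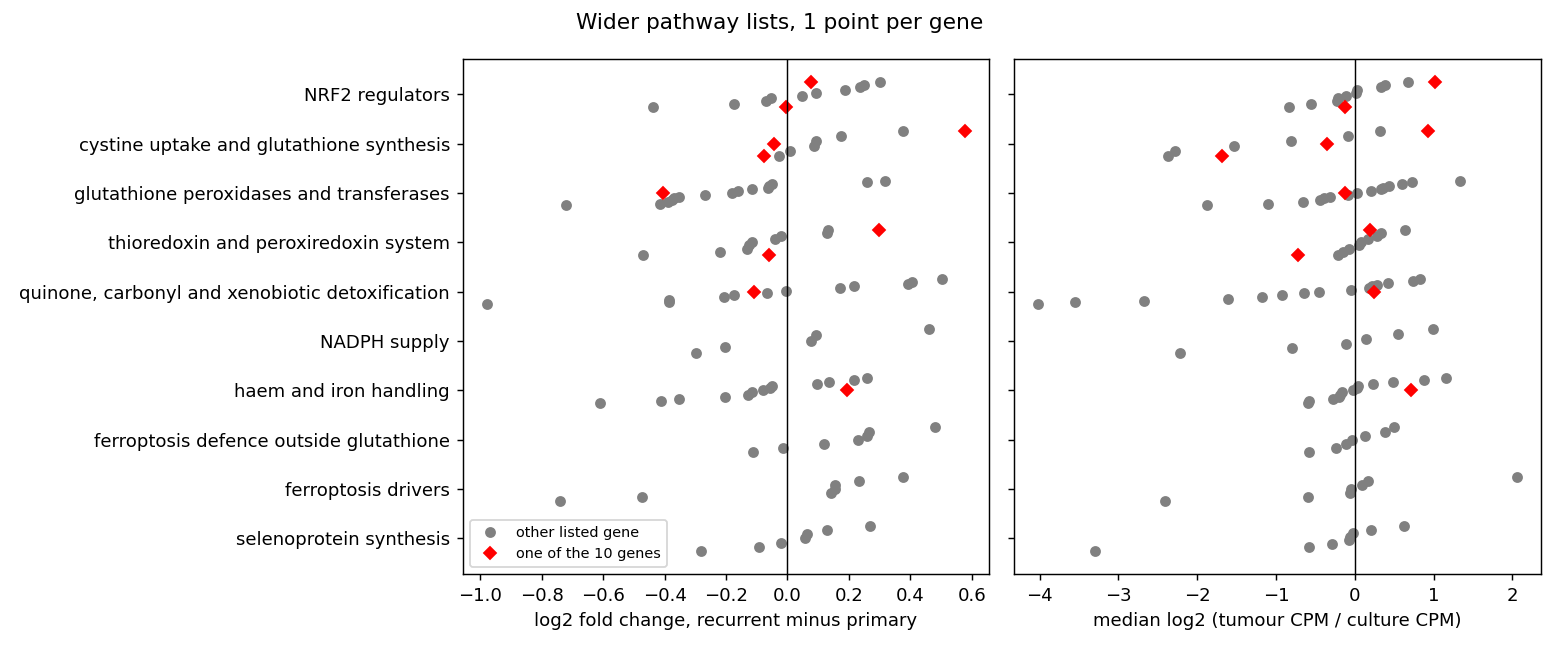
Each point is 1 gene of the 10 lists by role, with the log2 fold change of recurrent minus primary tumours on the left and the median log2 ratio of the tumours to the culture on the right, and red diamonds mark the 10 genes. The cystine and glutathione list reaches from -2.37 for CHAC1 to 0.92 for GCLM against the culture.

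The third comparison set the 6 tumours against the 3 control brains, which gives the signal of these human genes without an established tumour. The controls differed among themselves. The glioblastoma markers summed to 2168, 6012 and 10857 CPM in control replicates 1, 2 and 3, the neuronal markers to 7901, 1677 and 111 CPM, and the oligodendrocyte markers to 6016, 1269 and 65.0 CPM. Control replicate 3 thus had glioblastoma markers slightly above the range of the tumours. The brain markers lay above their range in the tumours in all 3 controls, and farthest above it in replicates 1 and 2. The part of these differences in the comparison was not tested. The 10 genes together had 33 and 105 counts in control replicates 1 and 2, and 2533 in control replicate 3, which held the most graft reads of the controls. Scaled to the library total they summed to 889 to 1108 CPM in the tumours, against 24.3, 61.7 and 609 CPM in the controls. Structural small RNAs, which took 6.41% to 14.5% of the counts in tumours, took 92.6%, 89.8% and 31.7% in control replicates 1, 2 and 3. With these left out the sums were 1027 to 1237 CPM in the tumours and 329, 602 and 892 CPM in the controls. KEAP1 and GCLM had a count of 0 in control replicate 1 and GCLC in control replicate 2, where 3 counts, the limit that a count of 0 allows, make 2.21 and 1.76 CPM of the library total. On the TMM scale 3 counts make 47.1 and 18.0 CPM there. These limits lie within the tumours' ranges of KEAP1 and GCLC, and below that of GCLM.

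On the TMM scale, edgeR called 0 of the 10 genes between tumours and controls, beside 6.02% of 16389 genes tested. At an unadjusted p under 0.05 there were 2 of the 10 by edgeR and 1 by DESeq2, which called 0, beside 20.7% and 16.4% of all genes. The log2 fold changes ran from -0.37 for GCLC to 0.83 for GCLM, with a median of 0.44 beside 0.22 over all genes. On library totals they ran from 1.18 to 2.35, with a median of 1.92 beside 1.74 over all genes, again with 0 called. GCLC and HMOX1 were below 0 on the TMM scale and above 0 on library totals (1.27 and 1.18). Without control replicate 3, NFE2L2 passed at 1.43 (adjusted p = 0.0167), beside 17.1% of 17223 genes called and a median of 1.16 over all genes and 0.83 over the 10. On the TMM scale 1 count made 15.7 CPM in control replicate 1 and 6.01 CPM in replicate 2, so a difference in single genes was not detectable at this depth unless large.

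The members with the widest range over the tumours were SLC7A11, 1.85-fold from the lowest to the highest, and GCLM, 1.81-fold. The profile nearest to SLC7A11 over the 6 tumours and the culture was that of LRRC8D, a subunit of volume-regulated anion channels, with a mean absolute difference of 0.09 on the centred log2(CPM + 1) scale over 7 libraries. LRRC8D stood at 64.5, 77.4 and 91.1 CPM in recurrent tumours, 62.3, 58.9 and 54.9 CPM in primary tumours and 215 CPM in the culture. GOLGA2P5, at 0.11, and MT-ATP8, a mitochondrial subunit of ATP synthase, at 0.12, came next. The genes nearest to GCLM were BHLHE40-AS1 and RCBTB2 at 0.11 and the protease CAPN5 at 0.14.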

How the data were processed

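Total RNA of 10 libraries was sequenced on an Illumina NextSeq instrument after ribosomal depletion, with reverse-stranded libraries, per the labels' protocols. STAR, Salmon 1.10.3, DESeq2 and the GRCh38 build are named, per the submitters' processing notes. Not given in the sources used here: the annotation release, the handling of multi-mapping reads and the read classes kept after species sorting. The authors deposited Salmon estimated counts per gene, not scaled between libraries. Each test used these estimates rounded to whole numbers. Estimates of NFE2L2 and SRXN1 were partly fractional, since Salmon divided some of their reads with other transcripts. Gene coordinates, transcript lengths and sequences came from GENCODE release 29, which matched 58261 of 62754 gene IDs. The main transcript of a gene was the longest of the best APPRIS rank.

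Recurrent and primary tumours, and tumours and controls, were each tested in edgeR 4.0.16 (R 4.3.3) by the two-sided quasi-likelihood F test, without covariates. Scaling was TMM, low counts were removed by filterByExpr, and p-values were adjusted by Benjamini-Hochberg over all tested genes (threshold 0.05). The SE is the log2 fold change divided by the square root of F, and 95% intervals use the degrees of freedom of that test. CPM refers to a TMM-scaled total, with the culture and controls scaled to the same reference tumour. DESeq2 1.42.0 and limma-voom (limma 3.58.1) were alternatives, beside other scalings, filters, covariates and each library left out. The edgeR fit was tested on simulated data. No 2 tumours held the same counts. The 10 genes and the wider lists were chosen with earlier results of these data known. Beyond the 10, the text names from each list the 3 genes with the smallest edgeR p and the 3 farthest from the culture, others where a count needed them, and the 3 nearest profiles for the 2 members of widest range. One gene that this rule names is not reported here. Reads here carry no molecular identifiers and are not independent molecules, so a limit for a count of 0 reflects counting error alone.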

Additional observations from a re-analysis of the deposited data

How the results depend on the processing

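Between recurrent and primary tumours, 0 of the 10 genes were called in every setting except with no filter on low counts, where SLC7A11 made 1. The 1 gene called in the table became 117 with DESeq2, 411 with no filter on low counts, 4 when adjusted for the prefix of the library name, 2 with the length trend removed, and 0 with limma-voom or when adjusted for graft percentage. It ran from 0 to 23 with each tumour left out: leaving out primary replicate 2 gave 0, recurrent replicate 3 gave 2, recurrent replicate 2 gave 3, primary replicate 3 gave 4 and recurrent replicate 1 gave 23. Recurrent replicates 2 and 3 alone carry another prefix, so that fit rests on recurrent replicate 1 and gives values only. No paired analysis was made, because the labels do not tie any recurrent tumour to a primary tumour. The labels give no replicate numbers, so those used here only name the libraries. The cause of each change below was not tested.

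Directions of log2 fold changes turned as follows, none past the threshold. Adjusted for graft percentage, GCLM turned to 0.48, NFE2L2 to 0.076, SECISBP2 to 0.037 and CTH to -0.22. Adjusted for the prefix, GCLC turned to 0.19, HMOX1 to -0.35, TXNRD1 to -0.13, GCH1 to -0.26, VKORC1L1 to -0.16, FADS1 to -0.044 and GSR to -0.0085. With the length trend removed, NFE2L2 turned to 0.017 and PRDX2 to 0.046, and on library totals NFE2L2 to 0.0053. With each tumour left out, GCLC ran from -0.18 to 0.11, GCLM from -0.21 to 0.20, NFE2L2 from -0.061 to 0.043 and CTH from -0.064 to 0.31. SLC7A11 stayed above 0 and GPX4 below 0 in all 15 alternatives run.

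Against controls, 987 genes were called, and 622 on library totals, 1602 with no filter, 641 on library totals with structural small RNAs left out (chosen after seeing the data), and 522 to 2948 with each library left out, the lowest without control replicate 1 and the highest without control replicate 3. Members called ran from 0 to 1 there, with NFE2L2 without control replicate 3. GCLC and HMOX1 turned to 1.27 and 1.18 on library totals, and HMOX1 ran from -0.50 to 0.77 with each library left out. Against the culture, 1277 genes were past 2-fold, 2744 past 1.5-fold, 584 past 3-fold and 4415 past 2-fold with no filter. Of the 10 genes, 3 were past 1.5-fold and 0 past 3-fold.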

Other observations

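TXNRD1, the thioredoxin reductase, and HMOX1, the haem oxygenase, ordered the 6 tumours almost alike. Recurrent replicate 3 was highest for both (356 and 17.4 CPM), recurrent replicate 2 was next (308 and 15.2 CPM), and recurrent replicate 1 was lowest for both (219 and 9.68 CPM). The 3 primary tumours lay between them, within 238 to 240.5 CPM for TXNRD1. FADS1 and VKORC1L1 of the wider lists ordered the 6 tumours exactly as HMOX1 did, so this order was not particular to the pair. Recurrent replicates 2 and 3 carry another library name prefix than the other 4 tumours, and recurrent replicate 1 had the lowest graft percentage, 29.44%. The part of either in this order was not tested.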
